A study of Mus musculus with 6 samples.

Results

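Transcripts of 10 genes of the ATF4 arm of the integrated stress response were followed in mouse embryonic stem cells (mESCs) that carry a degradable RNA polymerase II (Pol II). The genes were Atf4, Ddit3, Trib3, Ppp1r15a, Sesn2, Chac1, Asns, Psat1, Shmt2 and Slc7a11, found by matching these symbols in both deposited count tables, and they are 10 of the 39017 genes listed there. All 10 had counts in all 6 libraries, and all 10 passed the filter on low counts in every comparison.

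The study made polyA RNA-Seq libraries in 3 groups of 2 from the V6.5 mESC line, grown on irradiated fibroblast feeders in serum medium with LIF. The untreated group is the Pol II degron line, a clone chosen for efficient degradation and homozygous for the edit, in which the RPB1 subunit of Pol II (gene Polr2a) carries a mAID-GFP tag and the plant protein OsTIR1 is expressed from Rosa26 when doxycycline is present. It received 1 μg/ml doxycycline for 12 h and no auxin. The auxin group is the same line with the same doxycycline plus 500 μM auxin for 6 h, which lets OsTIR1 direct the tagged RPB1 to degradation. The wild-type group is V6.5 with untagged Pol II, for which doxycycline is not stated, and its counts stand in a table of their own. The auxin comparison asks how mature mRNA differs after 6 h of Pol II degradation, and the wild-type comparison asks what the tagged line differs in before auxin. In the wild-type comparison the tag, OsTIR1, doxycycline, the choice of 1 clone and the separate table cannot be told apart.

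In the integrated stress response, kinases that sense amino acid shortage, unfolded protein in the endoplasmic reticulum, double-stranded RNA or heme shortage phosphorylate the translation factor eIF2. General translation then drops while the Atf4 mRNA, which has short upstream reading frames, is translated more, and ATF4 protein with C/EBP partners turns on genes for amino acid synthesis and uptake, tRNA charging, redox balance and feedback. The counts measure mRNA, so they do not show ATF4 protein or eIF2 phosphorylation. Because the libraries are bulk RNA, fewer cells with a transcript and less of it per cell cannot be told apart.

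Promoter sequence was looked at first, since ATF4 with a C/EBP partner binds the C/EBP-ATF response element. Promoters of all 10 genes, 250 bases before to 50 bases after the annotated start, were found in RefSeq (GRCm38.p6, the mm10 assembly), with a pair of starts for Psat1. The letters TGATGNAA of this element, searched on both strands, occurred in the promoters of 4 of the 10 genes, against 4.51% of the 27025 genes with a promoter in the table. The windows around these matches are shown because they hold the letters by which ATF4 is known to read its targets. They run 5′ to 3′ on the strand of the gene, with the match in capitals.
Asns, chr6:7693225-7693258, minus strand: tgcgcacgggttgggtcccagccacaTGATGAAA
Trib3, chr2:152344031-152344072, minus strand: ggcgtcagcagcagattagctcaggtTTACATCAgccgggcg
Chac1, chr2:119351023-119351082, plus strand: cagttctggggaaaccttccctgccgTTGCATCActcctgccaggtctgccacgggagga
Slc7a11, chr3:50443627-50443705, minus strand: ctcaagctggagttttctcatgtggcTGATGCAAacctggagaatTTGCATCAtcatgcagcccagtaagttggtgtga
Counted from the RefSeq start, the Asns match lay at bases -23 to -16, the Chac1 match at -193 to -186 and the Trib3 match at 15 to 22. Slc7a11 held a pair, at -66 to -59 and -47 to -40, in opposite orientations. The Trib3 and Chac1 matches and the Slc7a11 match nearer the start read as the motif on the strand opposite to the gene. The GENCODE gene starts given further on differ from these: by GENCODE vM21 the Asns match lies inside the gene and the Trib3 match before its start. A match describes letters in this window and was not measured as binding.

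The libraries held between 14094022 and 15358714 counts on genes. All 10 mESC markers checked (among them Pou5f1, Nanog and Sox2) had at least 1674 counts in every library, and their summed level was 4053.5 and 4696.3 counts per 1000000 counts (CPM) in untreated, 3374.5 and 3635.9 in auxin, and 6647.5 and 6540.7 in wild-type. The wild-type records mention retinas in their RNA extraction. The 13 retina markers summed to between 8.53 and 10.9 CPM over all libraries. Between 2 and 4 of them had 0 counts in a library. The highest count of any of them was 45 to 62 in the degron libraries and 93 and 91 in wild-type. Markers of primitive endoderm summed to between 27.5 and 30.4 CPM in the degron line and 64.5 and 66.7 CPM in wild-type, those of feeder fibroblasts to between 195 and 250.4 CPM in the degron line and 149 and 155 CPM in wild-type. Mitochondrial mRNAs took 0.341% and 0.401% of untreated, 0.399% and 0.441% of auxin, and 1.53% and 1.5% of wild-type counts. These features moved with the groups compared below, and their part in the results was not tested. Polr2a itself had 6623 and 6568 counts in untreated, 10396 and 10663 in auxin, and 6866 and 7129 in wild-type. Its mRNA was higher after auxin (log2 fold change 0.57, SE 0.07, edgeR adjusted p = 0.00117), and since the degron acts on the protein, this mRNA does not check the depletion.

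The stress response genes were lower in wild-type mESCs than in the untreated degron line. After 6 h of auxin the 95% interval of the log2 fold change, relative to the level of most genes, stayed within 0.5 of 0 for 8 of the 10. The others were Chac1 and Slc7a11. The share of all genes with such an interval was not counted. Together the 10 genes took 0.292% and 0.297% of all counts in the untreated libraries, 0.271% and 0.277% in the auxin libraries, and 0.156% and 0.155% in the wild-type libraries. The plot of their levels in each library shows this gene by gene.

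**Figure D1:**
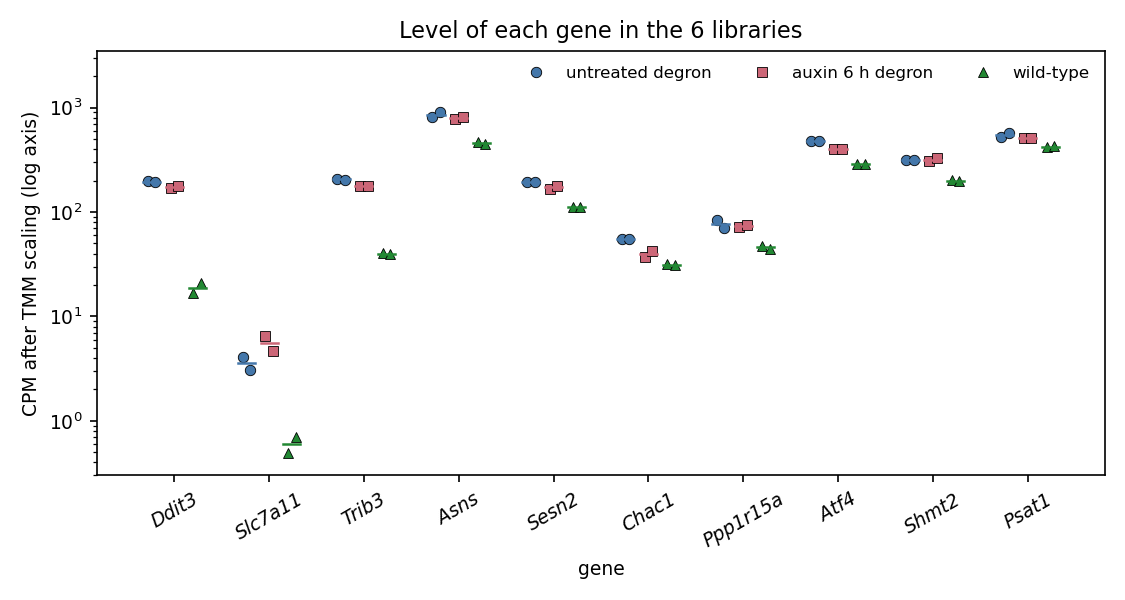
Level of each of the 10 genes in CPM after TMM scaling (log axis), 1 point per library, with a bar at the mean of each group of 2 (circles untreated degron, squares auxin for 6 h, triangles wild-type). The wild-type points lie below both degron groups for every gene, by the widest distance for Ddit3, Slc7a11 and Trib3, while untreated and auxin points lie close together except for Chac1 and Slc7a11.

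In the comparison of wild-type with untreated cells, all 10 genes were lower in wild-type at an adjusted p under 0.05 in the quasi-likelihood test of edgeR, with Benjamini-Hochberg adjusted p-values over 15778 genes. The background was high, since 30.7% of all genes tested were called lower in wild-type, and 31.2% of those with a mean of at least 100 counts. The wild-type libraries lay below both untreated libraries in CPM for 10 of the 10, where 40.5% of all genes did so. With a log2 fold change below -0.5 as a further condition, 9 of the 10 were called, against 21.1% of all genes and 17.3% of those with at least 100 counts. The median log2 fold change was -0.82 over the 10 genes and -0.01 over all genes tested, and the 10 ranged from -3.38 for Ddit3 to -0.39 for Psat1. The replicates are described only as biological replicates, so the p-values measure the spread between these libraries. The 10 genes and the lists below were chosen with earlier results of these data known, so these shares are not an independent test.

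In the comparison of auxin with untreated cells, 1 of the 10 genes was called: Chac1 was lower. Of all 16128 genes tested, 1.64% were called lower and 2.56% higher. By DESeq2, run as an alternative, 110 were called lower and 130 higher of 17536 genes. The auxin libraries lay below both untreated libraries in CPM for 7 of the 10 genes, where 28.4% of all genes did so, and above both for 1 gene, where 22.3% of all genes did so. An unadjusted p under 0.05 was reached by 6 of the 10, against 20.1% of all genes. The median log2 fold change of the 10 was -0.13, and for 8 of them the whole 95% interval of the log2 fold change lay within 0.5 of 0. The 2 comparisons share the untreated libraries, so a deviation of these libraries enters both.

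**Figure D2:**
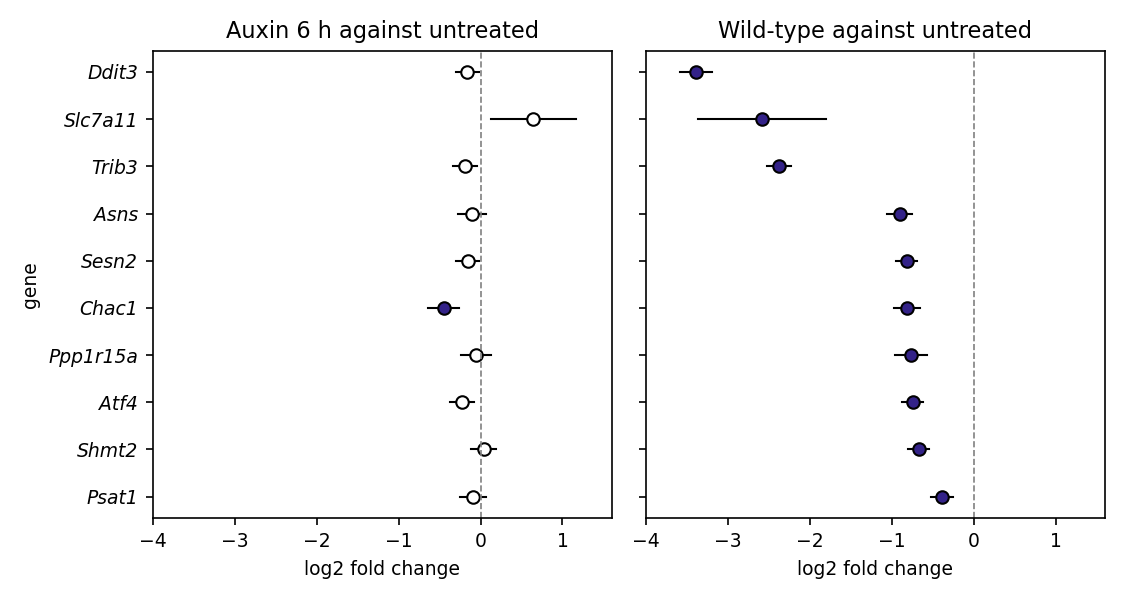
Log2 fold change of each of the 10 genes with its 95% interval, for auxin against untreated (left) and wild-type against untreated (right); filled points have an adjusted p under 0.05 by edgeR. On the left only Chac1 is filled and 8 of the intervals stay within 0.5 of 0, and on the right all 10 points are filled and lie to the left of 0.

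Atf4 encodes the bZIP transcription factor at the centre of the response (chr15:80255184-80257541, plus strand, mm10). Its level was 478 CPM in both untreated libraries, 401 and 403 CPM in the auxin libraries and 287 CPM in both wild-type libraries. The groups did not overlap, and the replicates of a group differed by far less than the groups did. Atf4 was lower in wild-type than in untreated cells by a log2 fold change of -0.74 (SE 0.06, 95% interval -0.87 to -0.62, edgeR adjusted p = 7.81e-07). Against untreated, the log2 fold change in auxin was -0.23 (SE 0.07, 95% interval -0.38 to -0.08) with an edgeR adjusted p of 0.0783. That last value was not called. It passed the threshold with all 3 groups in one fit (edgeR adjusted p = 0.0103) and with the replicate number as a block (0.0144). It did not pass with scaling to mitochondrial mRNAs (0.303), with no filter on low counts (0.135) or by DESeq2 (0.0548). With a library left out, the log2 fold change ran from -0.24 to -0.23.

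Ddit3 encodes CHOP, a C/EBP-related factor that ATF4 induces and that is known for promoting cell death when stress persists (chr10:127290774-127296288, plus strand). It had 2834 and 2808 counts in untreated, 2681 and 2744 in auxin, and 240 and 296 in wild-type, or 198 and 193, 168 and 177, and 16.9 and 20.7 CPM. Both wild-type libraries stood at a small fraction of all 4 degron libraries. The untreated mean was 10.4 times the wild-type mean, and the log2 fold change of wild-type against untreated was -3.38 (SE 0.09, 95% interval -3.58 to -3.19, edgeR adjusted p = 3.46e-10). Of 15778 genes tested, Ddit3 ranked at place 14 by p-value, and 140 genes, itself included, had a log2 fold change as low or lower. After auxin its log2 fold change was -0.16 (95% interval -0.30 to -0.02, edgeR adjusted p = 0.197).

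Of the exon bases of Ddit3, 3.97% overlap Mars on the opposite strand, 6.13% overlap a second GENCODE record of the name Ddit3 on the same strand, which is not in the count tables, and 0.759% overlap Gm4189 on the opposite strand, which had at most 13 counts in a library. No source used here says whether the counting used strand. Mars, a tRNA synthetase gene, had 3969 and 4424 counts in untreated, 4292 and 4402 in auxin, and 3834 and 3712 in wild-type. The neighbour thus lacked the gap that Ddit3 showed between wild-type and degron libraries.

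Trib3 encodes a pseudokinase that ATF4 and CHOP induce and that feeds back on ATF4 (chr2:152337422-152344032, minus strand). It stood at 209 and 201 CPM in untreated, 177 and 178 CPM in auxin, and 40.1 and 39.5 CPM in wild-type. Wild-type held 19.4% of the untreated mean. The log2 fold change of wild-type against untreated was -2.37 (SE 0.07, 95% interval -2.52 to -2.23, edgeR adjusted p = 5.23e-10), at place 17 by p-value. After auxin it was -0.19 (95% interval -0.33 to -0.05, edgeR adjusted p = 0.124), which was not called. The auxin value passed the threshold with all 3 groups in one fit (0.0326) and with the replicate number as a block (0.042). It did not pass with scaling to mitochondrial mRNAs (0.428), with no filter on low counts (0.186) or by DESeq2 (0.341). With a library left out, it ran from -0.22 to -0.17.

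Ppp1r15a encodes GADD34, the inducible subunit that brings protein phosphatase 1 to eIF2 and so ends the response (chr7:45522916-45526268, minus strand). Its levels were 83.9 and 70.6 CPM in untreated, 71.2 and 75.1 CPM in auxin, and 47.6 and 44.1 CPM in wild-type. The untreated libraries differed from each other by more than the group means of untreated and auxin did, and the auxin values lay between them. Wild-type was lower than untreated (log2 fold change -0.76, SE 0.09, edgeR adjusted p = 2.28e-05). The log2 fold change after auxin was -0.06 (95% interval -0.24 to 0.12, edgeR adjusted p = 0.76), and its sign turned when untreated replicate 1 was left out (0.06). Its constitutive counterpart Ppp1r15b went the other way in wild-type, with 2074 and 2142 counts in untreated, 1707 and 1695 in auxin, and 2549 and 2556 in wild-type. Ppp1r15b was lower after auxin (log2 fold change -0.41, edgeR adjusted p = 0.00512) and higher in wild-type than in untreated cells (0.29, 0.00136).

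Chac1 encodes an enzyme that breaks down glutathione (chr2:119351229-119354381, plus strand). It had 786 and 801 counts in untreated, 586 and 661 in auxin, and 446 and 449 in wild-type. In CPM these were 54.8 and 55.1, 36.8 and 42.7, and 31.4 in both wild-type libraries. The 3 groups were separate, with auxin between untreated and wild-type. Chac1 fell after auxin by 0.45 on the log2 scale (SE 0.09, 95% interval -0.64 to -0.26, edgeR adjusted p = 0.0128). Without auxin replicate 1, the lower of the pair, the log2 fold change was -0.35 with an adjusted p of 0.19. The call was also lost with no filter on low counts (adjusted p = 0.0934) and with scaling to mitochondrial mRNAs (0.099). Wild-type was lower than untreated by a log2 fold change of -0.82 (SE 0.07, edgeR adjusted p = 2.69e-06).

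Sesn2 encodes Sestrin 2, a leucine sensor that restrains mTORC1 (chr4:132492032-132510501, minus strand). It stood at 194 and 195 CPM in untreated, 166 and 178 CPM in auxin, and 111 CPM in both wild-type libraries. The wild-type and untreated libraries each differed little within their pair, and the groups did not overlap. Wild-type was lower than untreated by a log2 fold change of -0.82 (SE 0.06, edgeR adjusted p = 5.44e-07). The value after auxin was -0.16 (95% interval -0.30 to -0.01, edgeR adjusted p = 0.208).

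Among the metabolic targets, Asns encodes asparagine synthetase (chr6:7675169-7693254, minus strand). It had 809 and 905 CPM in untreated, 772 and 806 CPM in auxin, and 471 and 452 CPM in wild-type. Wild-type lay below all degron libraries, and the highest auxin library came close to the lower untreated library. The log2 fold change was -0.90 in wild-type (SE 0.07, edgeR adjusted p = 7.64e-07) and -0.10 after auxin (95% interval -0.27 to 0.07, edgeR adjusted p = 0.536). The auxin value was -0.18 (adjusted p = 0.00816) without untreated replicate 1 and -0.02 (0.889) without untreated replicate 2.

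Psat1 encodes phosphoserine aminotransferase of the serine pathway (chr19:15904678-15947337, minus strand). Its levels of 526 and 574 CPM in untreated, 506 and 509 CPM in auxin, and 419.6 and 426 CPM in wild-type gave the narrowest gap of the 10 between wild-type and untreated. The log2 fold change was -0.39 in wild-type (SE 0.06, 95% interval -0.53 to -0.25, edgeR adjusted p = 0.000274) and -0.10 after auxin (95% interval -0.26 to 0.06, edgeR adjusted p = 0.509). The auxin value was -0.16 (adjusted p = 0.0294) without untreated replicate 1 and -0.04 (0.803) without untreated replicate 2.

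Shmt2 encodes the mitochondrial serine hydroxymethyltransferase that feeds one-carbon units into folate (chr10:127517123-127522444, minus strand). It had 313 and 315 CPM in untreated, 306 and 329.9 CPM in auxin, and 200.3 and 196 CPM in wild-type. Auxin libraries lay on both sides of the untreated pair. The log2 fold change was -0.67 in wild-type (SE 0.06, edgeR adjusted p = 1.73e-06) and 0.04 after auxin (95% interval -0.11 to 0.19, edgeR adjusted p = 0.824), where the sign turned under mitochondrial scaling (-0.13) and without auxin replicate 2 (-0.02). Ndufa4l2, which shares 32 exon bases with Shmt2 on the opposite strand, had 16 to 23 counts in the degron libraries and 423 and 448 in wild-type, a gap in the other direction.

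Slc7a11 encodes the cystine and glutamate exchanger that supplies cysteine for glutathione (chr3:49892526-50443614, minus strand). It was the weakest of the 10, with 59 and 45 counts in untreated, 103 and 72 in auxin, and 7 and 10 in wild-type. The groups did not overlap, but few counts stand behind each value. Wild-type was lower than untreated by a log2 fold change of -2.59 with a wide 95% interval of -3.36 to -1.81 (edgeR adjusted p = 7.38e-05). The auxin libraries were the highest, with a log2 fold change of 0.64 against untreated (95% interval 0.13 to 1.16, edgeR adjusted p = 0.15), which was not called. It passed the threshold without untreated replicate 1 (0.86, adjusted p = 0.0108) and was 0.38 (0.696) without auxin replicate 1.

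Levels of different genes were compared per length, as CPM per kilobase of exon (RPKM). In untreated cells the order ran from Asns at 313 RPKM (SD 24.7, n = 2) through Atf4 (203), Psat1 (129), Ddit3 (114), Shmt2 (101), Trib3 (96.5), Sesn2 (56.0), Chac1 (33.6) and Ppp1r15a (26.3) to Slc7a11 at 0.259 (SD 0.0519), and the libraries of each gene lay apart from those of the next. In auxin the first 3 places were the same, while Shmt2 (102) and Ddit3 (101) overlapped in places 4 and 5, and Ppp1r15a (24.9) and Chac1 (24.3) overlapped in places 8 and 9. In wild-type Ddit3 stood at 11 RPKM (SD 1.55) in place 9, below Ppp1r15a (15.6), and Trib3 stood at 18.7 RPKM in place 7, below Chac1 (19.2). Asns (169), Atf4 (122) and Psat1 (99.4) kept the first 3 places in wild-type as well.

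For the order of the 3 groups, wild-type was also set against auxin in a fit of all 6 libraries. All 10 genes were lower in wild-type than in auxin, where 33.2% of all genes were called lower. The log2 fold change was -3.20 for Ddit3 and for Slc7a11 and -2.16 for Trib3, and the smallest were -0.34 for Chac1 (edgeR adjusted p = 0.00246) and -0.26 for Psat1. Without auxin replicate 2, Chac1 was at -0.22 with an adjusted p of 0.059. By group means, 8 genes ran untreated, auxin, wild-type from highest to lowest, and Shmt2 and Slc7a11 ran auxin, untreated, wild-type. Untreated and auxin were not separated by the test in 9 of the 10.

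The scaling sets what these differences are relative to. Scaling to mitochondrial mRNAs moved the median log2 fold change of all genes to -2.10 for wild-type and -0.17 for auxin against untreated. Relative to that median, wild-type values were -3.38 for Ddit3, -0.74 for Atf4 and -0.37 for Psat1. A change of scaling shifts all genes by about the same amount. These values thus return nearly to those above by construction and do not check the gap. Genes named below as higher in wild-type are higher relative to the median gene, and the shift of this scaling exceeds each of their values.

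Upstream of Atf4, 3 of the 4 eIF2 kinase genes were higher in wild-type than in untreated cells, where 29.9% of all genes were. None was called lower. Of 18 genes of the list of eIF2 kinases and eIF2 pathway genes, 8 were higher and 4 lower in wild-type than in untreated cells, where 29.9% and 30.7% of all genes were. DESeq2 called 6 of this list higher and 4 lower in wild-type, where it called 3557 and 3494 of 18698 genes. Eif2ak4 (GCN2, which senses uncharged tRNA) had 558 and 560 counts in untreated, 639 and 625 in auxin, and 704 and 761 in wild-type, with a log2 fold change of 0.40 in wild-type (edgeR adjusted p = 0.000723). Eif2ak3 (PERK, the endoplasmic reticulum sensor) was also higher in wild-type (0.29, adjusted p = 0.0138), as was Eif2ak1 (HRI, the heme sensor; 0.22, adjusted p = 0.0281). Eif2ak2 (PKR, the sensor of double-stranded RNA) was at 0.07 (adjusted p = 0.466). Impact, an inhibitor of GCN2, was lower in wild-type (log2 fold change -1.39), from 4065 and 4290 counts in untreated to 1545 and 1617. After auxin none of the kinases was called, with log2 fold changes of -0.16 for Eif2ak1, -0.01 for Eif2ak2, -0.12 for Eif2ak3 and 0.07 for Eif2ak4. Of the 18, edgeR called 1 after auxin, Ppp1r15b, and DESeq2 called 2, all lower, where edgeR called 1.64% of all genes lower. The number of this list called higher in wild-type changed with 1 library left out. Counts over all genes changed then too, so list counts with a library left out are not read alone.

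The bZIP factors that partner with ATF4 or share its targets were mostly lower in wild-type too. Of 9 tested, 0 were higher and 7 lower in wild-type, where 29.9% and 30.7% of all genes were, with a median log2 fold change of -0.94. Atf5, the closest relative of Atf4, had 1719 and 1686 counts in untreated, 2034 and 2097 in auxin, and 236 and 252 in wild-type. Its log2 fold change was -2.79 in wild-type (SE 0.08, edgeR adjusted p = 4.9e-10) and 0.18 after auxin (adjusted p = 0.161). Atf3, a stress-induced repressor, was at -1.89 in wild-type, Cebpb at -1.88, Jdp2 at -1.53, Nfe2l1 at -0.94 and Cebpg, a partner of ATF4, at -0.91, all called lower. After auxin edgeR called 2 of 9, both lower, and DESeq2 called 3 lower, where edgeR called 1.64% of all genes lower. The 2 were Cebpg at -0.35 (adjusted p = 0.0175) and Nfe2l2, the NRF2 gene, at -0.35 (0.0133). Atf3 (0.33, adjusted p = 0.099) and Cebpb (0.30, 0.119) were not called. An unadjusted p under 0.05 by edgeR was reached by 8 of the 9, 4 higher and 4 lower, against 20.1% of all genes. The count of this list called lower after auxin was 4, with 3 higher, without untreated replicate 1, and 0 without either auxin library.

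**Figure D3:**
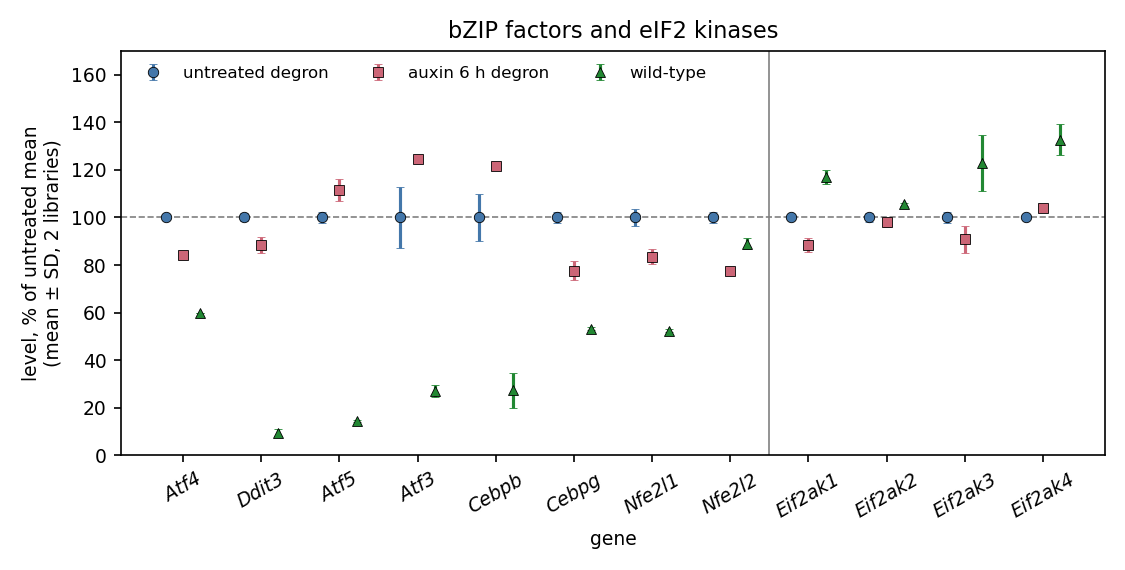
Level of Atf4, Ddit3 and 6 other bZIP genes (left of the line) and of the 4 eIF2 kinase genes (right) as percent of the untreated mean, with the mean and SD of 2 libraries per group (circles untreated degron, squares auxin for 6 h, triangles wild-type). The wild-type means of all 8 bZIP genes lie below 100%, lowest for Ddit3 at 9.62%, and those of the 4 kinases lie above it.

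Other targets of ATF4 were counted from 4 lists. The lists were chosen with earlier results of these data known, and counting them together was chosen after seeing the data. Of 56 genes in all, 42 were lower and 8 higher in wild-type than in untreated cells, and 6 were not called. Of all genes tested, 30.7% were lower and 29.9% higher. The median log2 fold change of the 56 was -0.54. With any 1 library left out, between 36 and 43 were called lower. After auxin 2 of the 56 were called by edgeR, both lower, and 1 by DESeq2, where edgeR called 1.64% of all genes lower. The numbers called lower and higher after auxin changed with 1 library left out, as did those over all genes.

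Genes that charge tRNAs, the aminoacyl-tRNA synthetases with the tRNA exporter Xpot, were lower in wild-type in 12 of 13, with 0 higher, against 30.7% and 29.9% of all genes. Wars (log2 fold change -1.43), Sars (-1.33) and Aars (-1.29) led, and Aars went from 26293 and 28488 counts in untreated to 11237 and 11018. Mars was the gene that was not called (-0.14, edgeR adjusted p = 0.076). After auxin 0 of 13 were called by edgeR and 0 by DESeq2, and the log2 fold changes ran from -0.21 to 0.10. An unadjusted p under 0.05 by edgeR was reached by 1, against 20.1% of all genes.

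Of 15 genes of amino acid and one-carbon synthesis, 9 were lower in wild-type, against 30.7% of all genes, and 4 were higher, a share near the 29.9% of all genes. Aldh1l2, a mitochondrial folate enzyme, was at -1.99, Mthfd2, which acts next to Shmt2, at -0.79, and Phgdh, the first enzyme of serine synthesis, at -0.74. Phgdh had 5881 and 6186 counts in untreated, 6698 and 7048 in auxin, and 3605 and 3559 in wild-type. The genes higher in wild-type included Cbs (0.63, transsulfuration) and Shmt1 (0.36), the cytosolic counterpart of Shmt2. After auxin, Gpt2, an alanine aminotransferase gene, was lower (-0.29, edgeR adjusted p = 0.025), and Phgdh was at 0.09 (adjusted p = 0.561).

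Amino acid transporters were lower in wild-type in 9 of 12, against 30.7% of all genes, and higher in 3, near the 29.9% of all genes. Slc38a7 was at -2.27, Slc3a2, whose product pairs with that of Slc7a11, at -1.20, and Slc7a5 at -1.11. Slc38a2 (0.77), Slc7a6 (0.45) and Slc43a1 (0.40) were higher. After auxin 0 of 12 were called by edgeR and 0 by DESeq2, and 2 had an unadjusted p under 0.05, against 20.1% of all genes. Of 16 signalling and secreted targets, 12 were lower and 1 higher in wild-type, against 30.7% and 29.9% of all genes. Sqstm1, the autophagy receptor p62, went from 19296 and 16499 counts in untreated to 3003 and 3077 in wild-type (-2.55), Nupr1 was at -1.90, and Eif4ebp1, a repressor of translation, at -1.19. Jag1, a Notch ligand, was higher (1.69). Gdf15, a secreted stress factor, was the gene of this list that edgeR called after auxin (-0.43, adjusted p = 0.0262), and DESeq2 called 0 of the list. An unadjusted p under 0.05 by edgeR was reached by 5 of the 16, 3 higher and 2 lower, against 20.1% of all genes.

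Of 10 paralogs of the 10 genes that were tested, 4 were higher and 1 was lower in wild-type than in untreated cells, against 29.9% and 30.7% of all genes. Sesn1 (0.88), Trib2 (0.88), Shmt1 and Ppp1r15b were the higher ones, and Atf5 was the lower one. The number called higher changed with 1 library left out, as did the number over all genes.

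The other arms of the endoplasmic reticulum response stood near the background. Of 22 targets and regulators of ATF6 and XBP1, 7 were higher and 8 lower in wild-type, where 29.9% and 30.7% of all genes were, with a median log2 fold change of -0.06. Hspa5, the chaperone BiP, had 9695 and 8528 counts in untreated, 10815 and 10218 in auxin, and 8220 and 8418 in wild-type. It was at -0.12 in wild-type (edgeR adjusted p = 0.166) and 0.10 after auxin (adjusted p = 0.536). Hsp90b1 was higher in wild-type (0.92), and Atf6 (-0.96), Dnajc3 (-0.81) and Sel1l (-0.63) were lower. After auxin 0 of the 22 were called by edgeR and 0 by DESeq2, and 3 had an unadjusted p under 0.05, against 20.1% of all genes. The count higher in wild-type was 3 without wild-type replicate 1 and 4 without replicate 2, and 4 were called higher after auxin without untreated replicate 1. The difference between this list and the ATF4 targets was not tested.

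**Figure D4:**
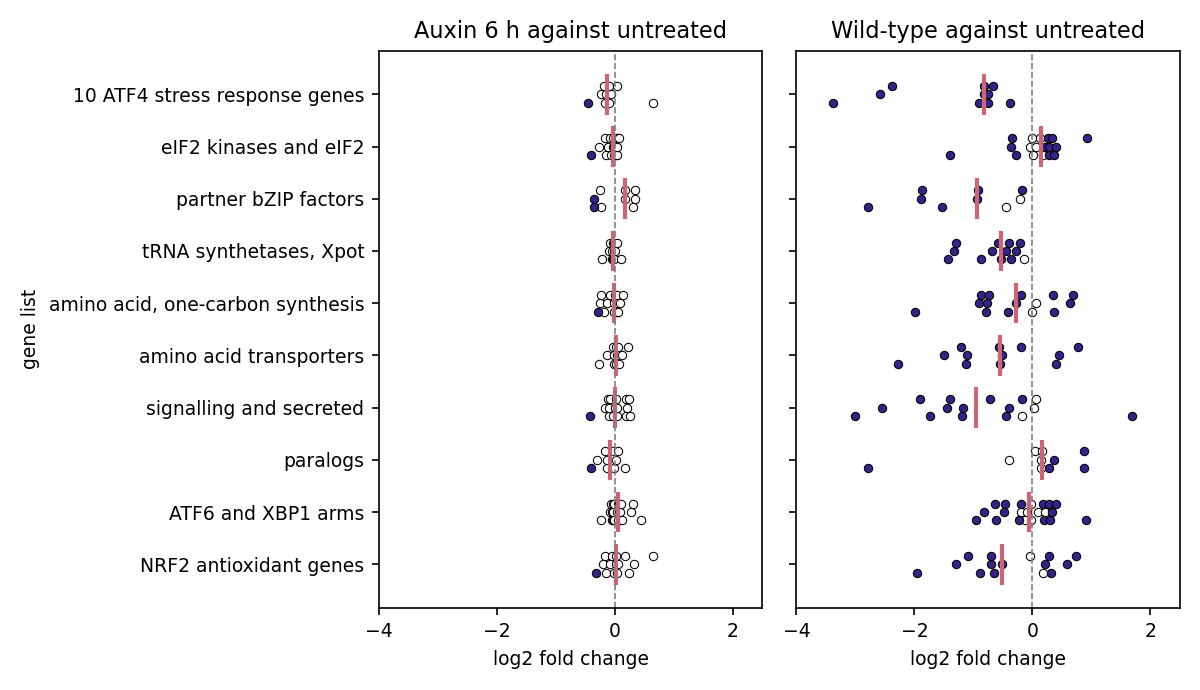
Log2 fold change of each gene in the 10 genes and 9 further lists, for auxin against untreated (left) and wild-type against untreated (right); filled points have an adjusted p under 0.05 by edgeR and bars mark the median of each list. On the right the median of the partner bZIP factors is -0.94 and that of the ATF6 and XBP1 arms -0.06, and on the left the points lie around 0.

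Across the 6 libraries, Ddit3 had the widest range of group means of the 10. A set of 1606 genes averaged 100 counts or more and had group means at least 2-fold apart, and in it those whose log2 levels were most like it were Scly (r = 0.999), which encodes selenocysteine lyase, Stra8 (0.999), a germ cell gene, and Specc1 (0.999). Scly had 432 and 428 counts in untreated, 470 and 462 in auxin, and 174 and 188 in wild-type. Trib3 came at place 16 (r = 0.998). All such genes share the gap between 2 wild-type and 4 degron libraries, so these correlations describe that gap.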

How the data were processed

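PolyA RNA-Seq counts were analysed for 6 mESC libraries. The authors aligned paired reads to mm10 with HISAT2 2.1.0, counted them on GENCODE genes with Salmon and HTSeq, and deposited raw counts without normalization in one table for the degron libraries and one for wild-type. The annotation release and the strand setting are not given in the sources used here. The tables were joined by gene ID, since 27 IDs carried another symbol between them. The authors' own comparison columns (fold changes and adjusted p-values) were not used, nor were 2 columns that match no sample of the series.

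Tests used the quasi-likelihood functions of edgeR 4.0.16 (R 4.3.3) with TMM scaling, filterByExpr with a minimum count of 10 and Benjamini-Hochberg adjustment, and called at an adjusted p-value under 0.05. Auxin and wild-type were each fitted with untreated on their own 4 libraries, and wild-type against auxin on all 6. The procedure was run on simulated data with few changed genes, unlike the wild-type comparison, so that run does not check the calls there. CPM levels used TMM factors over the 6 libraries. RPKM and coordinates used exon unions of GENCODE vM21 (mm10), in which 37607 of the IDs were found. Sequences are from RefSeq.

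The 10 genes and the lists were chosen with earlier results of these data known. Named genes are the 10, Polr2a, up to 3 called genes per list, comparison and direction with the smallest p-value and groups that do not overlap, a fixed set given whether called or not (Eif2ak1 to Eif2ak4, Ppp1r15b, Atf3, Atf5, Cebpb, Cebpg, Hspa5 and Phgdh), the 3 genes most like Ddit3, and neighbours with overlapping exons. Trib2 and the stem cell marker names were added after their values were seen. The alternatives were DESeq2 1.42.0, its size factors, library totals, mitochondrial mRNA scaling, a filter of at least 10 counts in each library or none, a block for the replicate number, one fit of all 3 groups, and each library left out in turn, where a lone library was assumed to vary like the other groups. Counting together the 4 lists of other ATF4 targets was chosen after seeing the data.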

Additional observations from a re-analysis of the deposited data

How the results depend on the processing

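All 119 values of the 10 genes in the comparison of wild-type with untreated cells kept their direction and their call under every alternative run. Slc7a11 was left out by the filter of at least 10 counts in every library there, so this alternative gave no value for it. Against auxin, 118 of 119 kept direction and call, the exception being Chac1 without auxin replicate 2. In both comparisons the values under mitochondrial scaling do not check the calls. That scaling called 15235 of 15778 genes lower against untreated and 15805 of 16467 against auxin. In the auxin comparison, 104 of 120 values kept direction and call, 10 passed the threshold only in the alternative, 3 lost it and 3 turned sign: Ppp1r15a at 0.064 without untreated replicate 1 (from -0.18 to 0.064 over libraries left out), and Shmt2 at -0.13 with mitochondrial scaling and -0.015 without auxin replicate 2 (from -0.015 to 0.085 over libraries left out). The number of the 10 genes called lower after auxin, 1 as reported, was 0 with mitochondrial scaling, 0 with no filter, 3 with all 3 groups in one fit and from 0 to 4 with 1 library left out, and the number called higher ran from 0 to 1.

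Over all genes, auxin called 413 higher and 264 lower. Mitochondrial scaling gave 167 and 52, no filter 43 and 12, at least 10 counts in every library 246 higher, DESeq2 130 and 110, and all 3 groups in one fit 567 and 668. With 1 library left out the counts ran from 142 to 1394 higher and from 35 to 1330 lower. The higher share of the calls was 61.0% as reported, 76.3% with mitochondrial scaling and 45.9% with 3 groups. For wild-type against untreated, mitochondrial scaling gave 73 higher and 15235 lower instead of 4713 and 4842, and against auxin 102 and 15805 instead of 5368 and 5470. The cause was not tested.

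Replicate numbers are shared between groups, but the differences between replicates correlated across genes by only 0.067 (untreated and auxin), -0.03 (untreated and wild-type) and 0.01 (auxin and wild-type), so the numbers were not treated as pairs. With the replicate number as a block, auxin called 1081 genes higher and 849 lower, and 3 of the 10 genes lower (Chac1, Atf4 at an edgeR adjusted p of 0.0144 and Trib3 at 0.042). For lists, 599 counts stayed the same or moved by at most 1.5 times, and 121 moved by more or went to or from 0. Depth limits Slc7a11, with 7 and 10 counts in wild-type.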

Other observations

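Genes of the antioxidant response, whose factor NRF2 is a bZIP protein like ATF4, were also measured. Of 15 tested, 8 were lower in wild-type than in untreated cells by edgeR, against 30.7% of all genes, and 5 were higher, near the 29.9% of all genes, with a median log2 fold change of -0.51. Hmox1, which degrades heme, had 2674 and 2590 counts in untreated, 2279 and 2266 in auxin, and 693 and 656 in wild-type, a log2 fold change of -1.95 in wild-type and -0.32 after auxin (edgeR adjusted p = 0.0189). The metallothionein gene Mt2 (-0.88) and Gpx4 (-0.70), which protects lipids from peroxidation, were lower in wild-type. Gsr (0.75), Prdx1 (0.59) and G6pdx (0.32), which recycle glutathione, reduce peroxides and supply NADPH, were higher. Hmox1 was the gene of this list called after auxin, and the count called lower after auxin was 5 without untreated replicate 1 and 0 without either auxin library. The count higher in wild-type was 2 without wild-type replicate 2.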
